A study of Homo sapiens with 6 samples.

Results

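The genes of respiratory complexes III and IV and of ATP synthase were compared between parental and onvansertib-resistant H526 cells. Members were the protein-coding genes of the deposited table whose symbol starts with UQCR, ATP5 or COX followed by a digit, together with *CYC1*, *MT-CYB*, *MT-CO1*, *MT-CO2*, *MT-CO3*, *MT-ATP6* and *MT-ATP8*. This gave 62 of 20026 protein-coding genes, of which 11 belong to complex III, 20 are named as subunits of complex IV, 9 are assembly factors of complex IV and 22 belong to ATP synthase. Mitochondrial DNA (mtDNA) encodes 6 of them and the nucleus 56. H526 is a small cell lung cancer line, and onvansertib is an inhibitor of the mitotic kinase PLK1. The resistant cells had been kept for a year or more in onvansertib that was raised from 10 nM to 75 nM, and the parental cells are the line they came from. Bulk RNA was sequenced in 3 libraries of each, parental 1, 2 and 3 and resistant 7, 8 and 9. The labels describe 1 cell line and 1 selection, with RNA taken on 3 occasions, so p-values measure the spread between these libraries and not between independent selections. Whether drug was present at harvest is not given, so acquired resistance and exposure cannot be told apart.

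Complex III passes electrons from ubiquinol to cytochrome c, complex IV passes them from cytochrome c to oxygen, and both build the proton gradient across the inner mitochondrial membrane that ATP synthase uses to make ATP. Each complex joins subunits of the nuclear genome to subunits of mtDNA, and complex IV also needs dedicated factors that insert heme and copper. Many nuclear respiratory genes carry binding motifs for NRF1 and for ETS factors such as GABP close to the start of transcription.

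Of the 62 members, 55 had a mean normalized value of at least 10 over the 6 libraries and were tested. Of these, 24 fell in resistant cells, 2 rose and 29 did not pass the threshold, an adjusted p of 0.05 by limma over all 16347 genes tested. Over all genes tested 37.7% passed it, 19.8% with a fall and 17.8% with a rise, against 43.6% and 3.64% of the tested members. All 24 members that fell are nuclear, and they make up 49% of the 49 nuclear members tested. The median log2 fold change (resistant over parental, on log2 of the normalized value plus 1) was -0.24 over the 55 members and -0.00 over all genes tested. Only 11 of the 55 members had a log2 fold change above 0. The values of the 3 resistant libraries lay entirely below those of the 3 parental libraries for 26 members and entirely above them for 3, where the shares over all genes tested were 25.9% and 24%. With 3 libraries against 3, the smallest p that the exact permutation test (two-sided) allows for 1 gene is 0.10, and it gave that value for these 29 members. In bulk RNA, fewer cells of a type and less RNA per cell cannot be told apart.

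**Figure D1:**
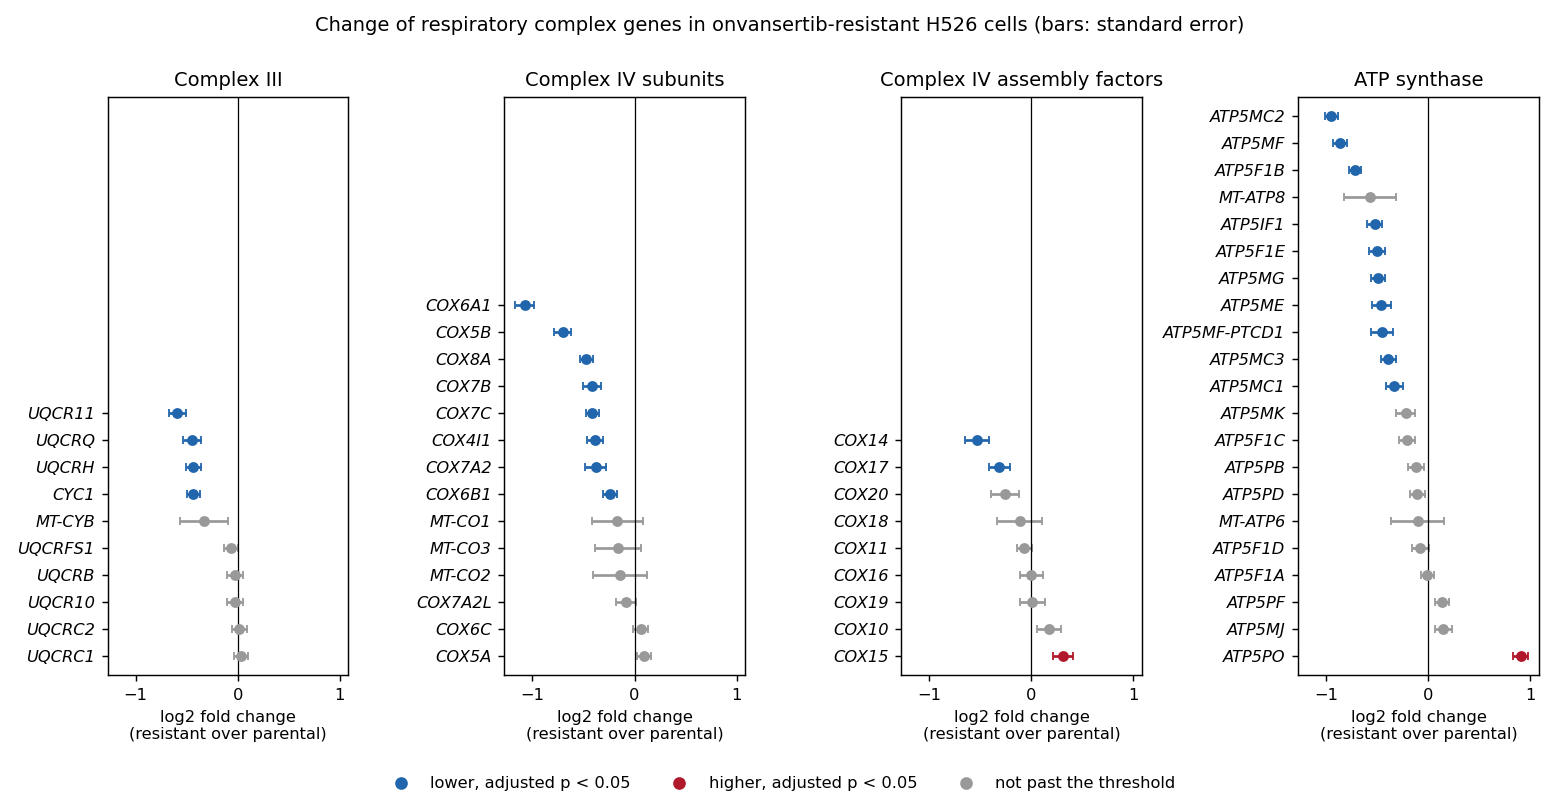
Log2 fold change (horizontal axis, resistant over parental, with its standard error) of each tested member except *UQCRHL*, by complex, with 3 libraries per group. Blue points fell, red points rose and grey points did not pass the adjusted p of 0.05. The members run from *COX6A1* at -1.08 to *ATP5PO* at 0.91, and those of mtDNA have the longest error bars.

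The parental libraries held about 25784000 to 28510000 reads and the resistant libraries 22392000 to 23253000, as estimated from the value of 1 read. Messenger RNA of mtDNA took between 1.38% and 2.63% of the total value, and it was lowest in parental library 1 (1.46%) and resistant library 8 (1.38%). The nuclear members took 0.727% to 0.766% of the nuclear total in the parental libraries and 0.594% to 0.647% in the resistant libraries, lowest in resistant library 8. As a check of the label, *POU2F3* had a value of 25809 in parental and 27273 in resistant libraries on average. The 8 genes of a tuft-like list summed to values of 83510 to 86658 in parental and 73951 to 75450 in resistant libraries, with 3 of them lower (*AVIL*, *KIT* and *ASCL2*), 4 higher and a median log2 fold change of 0.14. The sum of 5 neuroendocrine genes was 7029 to 8468 in parental and 1454 to 1689 in resistant libraries. Fibroblast genes (6) summed to 144 to 192 in parental and 385 to 627 in resistant libraries, where *COL1A1* and *COL1A2* alone were past the threshold, and leukocyte genes (5) to 5.31 to 7.94 and 5.09 to 18.1, with *CD3E* at 0. Endothelial genes (3) summed to 244 to 339 and 452 to 491, nearly all of it *VWF*, with *CDH5* at 0 in every library and *PECAM1* at 0.198 in resistant library 8 and 0 elsewhere. The part of these shifts in the values of the members was not tested.

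The windows around the transcription start, from 250 bases before to 50 bases after it, are shown first, for the stretch that holds the motif of ETS factors (CCGGAAGT on either strand) or of NRF1 (its palindrome with a free base in the middle, on either strand). RefSeq windows (GRCh38.p14) were at hand for 43 members, among them 39 nuclear members that were tested. Each sequence is written 5′ to 3′ on the strand of the gene, with the motif in capitals, and all printed bases lie before the RefSeq start. Some of them lie inside the gene as bounded by Gencode, whose start can differ. The first 5 hold an ETS motif in members that fell, *UQCR11* (chr19:1605463-1605599, minus strand), *UQCRQ* (chr5:132866568-132866615, plus), *UQCRH* (chr1:46303631-46303678, plus), *COX5B* (chr2:97646005-97646052, plus) and *COX8A* (chr11:63974581-63974619, plus), and that of *UQCR11* holds NRF1 motifs as well.
UQCR11: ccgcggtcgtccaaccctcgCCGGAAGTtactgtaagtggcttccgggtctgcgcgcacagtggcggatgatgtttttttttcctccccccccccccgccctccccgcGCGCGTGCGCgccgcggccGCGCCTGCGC
UQCRQ: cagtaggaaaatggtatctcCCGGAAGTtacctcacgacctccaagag
UQCRH: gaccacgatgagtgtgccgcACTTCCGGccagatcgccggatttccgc
COX5B: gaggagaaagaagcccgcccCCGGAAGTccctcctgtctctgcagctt
COX8A: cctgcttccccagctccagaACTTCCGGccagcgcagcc
The next 3 hold the same motif in members that did not fall, *ATP5F1A* (chr18:46098318-46098365, minus), *ATP5PF* (chr21:25734905-25734932, minus) and *COX15* (chr10:99732128-99732155, minus).
ATP5F1A: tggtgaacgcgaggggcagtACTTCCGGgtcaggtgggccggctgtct
ATP5PF: gtgtgggggcggagccagggCCGGAAGT
COX15: cggggctcccgctgcccgacCCGGAAGT
The last 3 hold NRF1 motifs in a member that fell, *ATP5ME* (chr4:674421-674515, minus), one that rose, *ATP5PO* (chr21:33915805-33915848, minus), and one that did not pass the threshold, *UQCRC1* (chr3:48609664-48609713, minus).
ATP5ME: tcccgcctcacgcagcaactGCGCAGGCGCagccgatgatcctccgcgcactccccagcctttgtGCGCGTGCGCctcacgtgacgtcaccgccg
ATP5PO: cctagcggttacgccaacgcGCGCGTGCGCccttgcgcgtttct
UQCRC1: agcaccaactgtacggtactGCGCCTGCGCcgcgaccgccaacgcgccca
The ETS motif stood in 12 of the 39 windows (30.8%), against 9.66% of 10863 tested protein-coding genes and 4.95% of all 27305 genes with a window. Among the members it stood in 6 of the 19 that fell (31.6%) and in 6 of the 20 others (30%). The NRF1 motif stood in 10 of the 39 windows (25.6%), against 12.9% of tested protein-coding genes and 6.98% of all genes with a window. It stood in 3 of the 19 members that fell (15.8%) and in 7 of the 20 others (35%). These shares are descriptions of letters in the windows and not of bound factors.

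In complex III, 4 of 11 members fell and none rose by limma, where 4 had an unadjusted p under 0.05. The 4 were *UQCR11*, *UQCRQ* and *UQCRH*, small accessory subunits, and *CYC1*, the cytochrome c1 that hands electrons to cytochrome c. *UQCR11* (ENSG00000127540, chromosome 19 of GRCh38, 1597169 to 1605473) had normalized values of 1631, 1733 and 1834 in the parental libraries and 1073, 1134 and 1242 in the resistant libraries. The resistant libraries all lay below the parental ones. It fell by 0.59 on the log2 scale (SE 0.08, adjusted p = 0.000383 by limma). *UQCRH*, the acidic hinge subunit, had values of 3843, 3492 and 3813 in parental and 2901, 2538 and 2802 in resistant libraries, also without overlap, and fell by 0.44 (SE 0.07, adjusted p = 0.00114). *UQCRQ* went from 2099 ± 83.2 (SD, n = 3) to 1544 ± 163 (SD, n = 3), or -0.45 on the log2 scale (adjusted p = 0.00275), and *CYC1* from 10469.8 ± 691 (SD, n = 3) to 7751 ± 390.02 (SD, n = 3), or -0.43 (adjusted p = 0.000764).

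The other nuclear members of complex III did not pass the threshold. *UQCRC1* and *UQCRC2*, the core proteins, had log2 fold changes of 0.03 and 0.02, and *UQCRFS1*, the Rieske iron-sulfur protein, one of -0.07 (SE 0.07). The accessory subunits *UQCRB* (-0.03) and *UQCR10* (-0.03) were as close to 0, and for all 5 of these genes the groups overlapped. *UQCRHL* is a near copy of *UQCRH* with which it can share reads, so its values are uncertain. It had values of 69.3, 25.9 and 53.4 in parental and 79, 1.54 and 11.6 in resistant libraries, and its log2 fold change of -1.78 (SE 0.99) did not pass the threshold (adjusted p = 0.184). Without resistant library 7, the highest of the 6, it was -3.05 (adjusted p = 0.00931), and over all alternatives the adjusted p ran from 0.00931 to 0.836. *UQCRHL* took 0.413% ± 0.168 (SD, n = 3) of the sum with *UQCRH* in parental and 0.334% ± 0.452 (SD, n = 3) in resistant libraries per length of the longest transcript, 2.49% ± 0.996 and 1.98% ± 2.66 per length of the canonical transcript, and 1.3% ± 0.524 and 1.04% ± 1.41 with no division by length.

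Among the subunits of complex IV, 8 of the 14 tested fell and none rose by limma, where 8 had an unadjusted p under 0.05. *COX6A1*, a subunit at the interface of the dimer, changed most of all members that passed the threshold. *COX6A1* (ENSG00000111775, chromosome 12 of GRCh38, 120438090 to 120440737) had values of 8281, 9530.3 and 9228 in the parental and 4289, 3775 and 4782 in the resistant libraries, which left it at 47.5% of the parental mean. The groups were far apart, and the log2 fold change was -1.08 (SE 0.09, adjusted p = 1.46e-05). *COX5B* (ENSG00000135940, chromosome 2 of GRCh38, 97646062 to 97648383), a zinc-binding subunit on the matrix side, had values of 2134, 2308 and 2441 in parental and 1332, 1339.8 and 1557 in resistant libraries. All resistant libraries again lay below the parental ones, and *COX5B* fell by 0.70 on the log2 scale (SE 0.09, adjusted p = 0.000164).

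**Figure D2:**
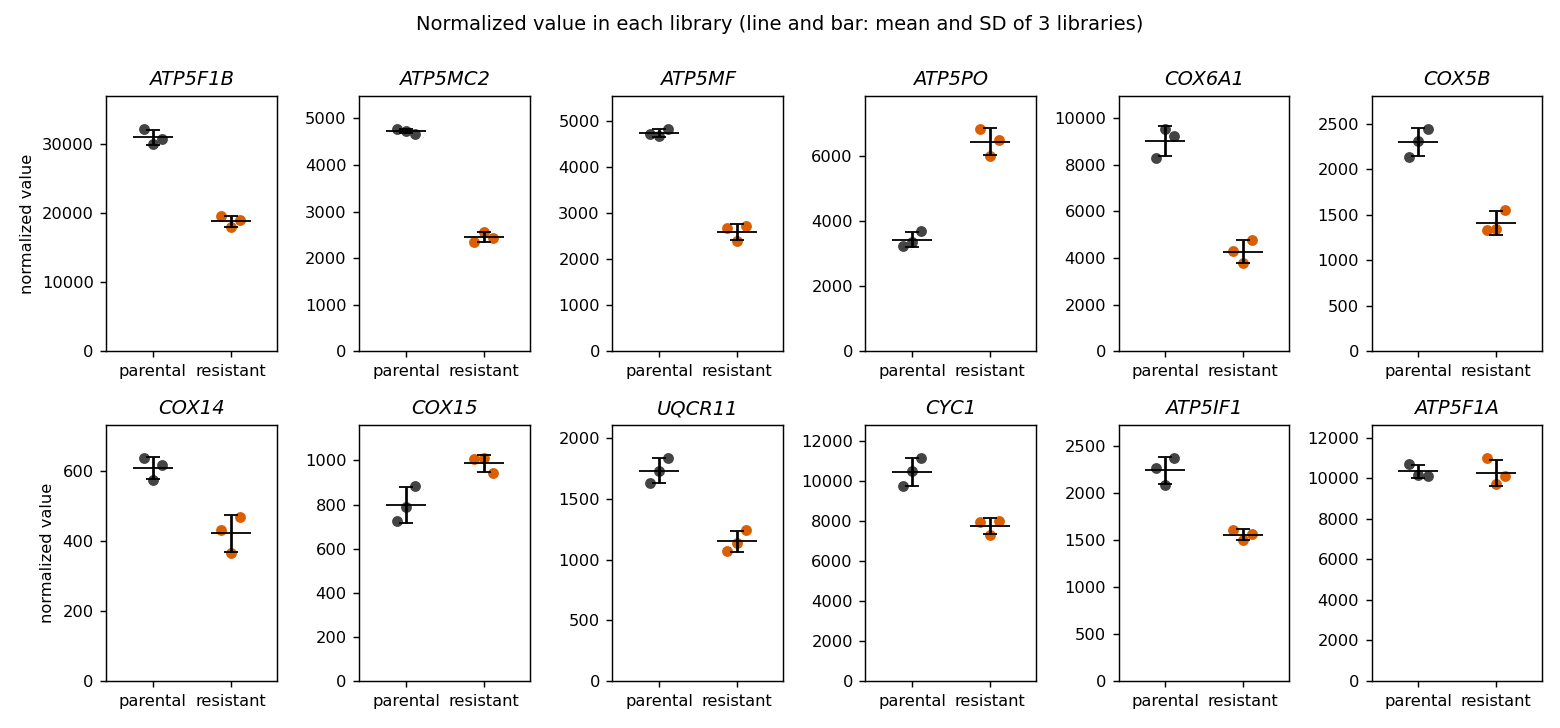
Normalized value (vertical axis, from 0) of 12 members in each library, with the mean and SD of the 3 parental and 3 resistant libraries as line and bar. *ATP5PO* and *COX15* were higher in resistant libraries, *ATP5F1A* overlapped between the groups, and the other 9 genes were lower in every resistant library, with *COX6A1* at 47.5% and *CYC1* at 74% of the parental mean.

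The other 6 subunits that fell did so by less. *COX8A*, a small membrane subunit, had values of 6488, 6924 and 7105 in parental and 4900.2, 4702 and 5202 in resistant libraries and a log2 fold change of -0.47 (SE 0.06, adjusted p = 0.000336). *COX7B* had values of 2257, 2332 and 2463 against 1735, 1579 and 1969.7, -0.42 on the log2 scale (adjusted p = 0.00402). *COX4I1*, the common form of the subunit at which ATP acts on the enzyme, had values of 3977, 3769.5 and 4043 against 3233, 2677 and 3119, or -0.39 (adjusted p = 0.00364). In all 3 the groups did not overlap. *COX7C* went from 3323 ± 99.6 (SD, n = 3) to 2495 ± 115 (SD, n = 3) (-0.41, adjusted p = 0.000767). *COX7A2* had values of 2388, 2836 and 2701 against 2043, 1744 and 2318 and fell by 0.38 (adjusted p = 0.0175). *COX6B1*, which joins the monomers of the dimer on the side of cytochrome c, had values of 4875, 5295 and 5254 against 4504, 3991 and 4561 and fell by 0.24 (adjusted p = 0.022). These last 2 calls were lost without parental library 2 (adjusted p of 0.0579 and 0.0637), without parental library 3 (0.0599 and 0.0803) and without resistant library 8 (0.0617 and 0.0822). They were also lost without the trend of limma (0.077 and 0.0842), and that of *COX6B1* with mtDNA genes left out and libraries rescaled (0.0662).

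Of the nuclear complex IV subunits tested, *COX5A* (0.10), *COX6C* (0.06) and *COX7A2L* (-0.08) did not pass the threshold. *COX7A2L*, which joins complex III to complex IV in supercomplexes, had values of 978, 1194 and 993 in parental and 986, 941 and 1050.4 in resistant libraries, which overlap. The tissue-specific forms of the subunits were at or near 0 in both groups. *COX6A2*, *COX7A1* and *COX7B2*, known from heart and muscle or from testis, were listed at 0 in all 6 libraries, which allows values of up to 2.67 to 3.22, the value of 3 reads (counting error only). *COX4I2* was above 0 in 1 library only, at 0.601 in parental library 3, and *COX8C* at 1.06 in resistant library 9. *COX6B2* had values of 2.43, 4.88 and 7.91 in parental and 2.11, 8.16 and 0.84 in resistant libraries. Per length of the longest transcript, *COX6B2* took 0.0367% ± 0.0191 (SD, n = 3) of the pair with *COX6B1* in parental and 0.0338% ± 0.0377 (SD, n = 3) in resistant libraries, and with no division by length 0.0974% and 0.0897%. The share of *COX7A2L* in the sum with *COX7A2* depended on the length used, with 10.7% ± 0.674 (SD, n = 3) in parental and 12.8% ± 0.997 (SD, n = 3) in resistant libraries per length of the longest transcript, 7.48% ± 0.489 and 9.05% ± 0.735 per length of the canonical transcript, and 28.5% ± 1.45 and 32.9% ± 1.96 with no division.

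The assembly factors of complex IV were mixed, with 2 of 9 lower and 1 higher, against 19.8% and 17.8% of all genes tested. *COX14* (ENSG00000178449, chromosome 12 of GRCh38, 50112082 to 50120457), which couples the synthesis of *MT-CO1* to assembly, had values of 636, 573 and 616 in parental and 430.5, 366 and 469 in resistant libraries. The groups did not overlap, and *COX14* fell by 0.53 (SE 0.12, adjusted p = 0.00509). *COX17*, the chaperone that brings copper to the complex, went from 594 ± 45.7 (SD, n = 3) to 477 ± 30.4 (SD, n = 3) and fell by 0.31 (SE 0.10, adjusted p = 0.0375). This call was lost without parental library 1 (adjusted p = 0.0831), parental library 3 (0.131), resistant library 8 (0.0946) or resistant library 9 (0.111). *COX15* (ENSG00000014919, chromosome 10 of GRCh38, 99710868 to 99732127), which makes the heme a of the enzyme, had values of 724, 787 and 886 in parental and 1007, 1009 and 943 in resistant libraries. All resistant libraries were above the parental ones, with a log2 fold change of 0.31 (SE 0.09, adjusted p = 0.0271). Without parental library 1, parental library 2, resistant library 7 or resistant library 8, the adjusted p was 0.0775, 0.0606, 0.0769 and 0.0814. *COX10*, which acts just before *COX15* in heme synthesis, had a log2 fold change of 0.17 (SE 0.11, adjusted p = 0.261). The copper factors *COX11* (-0.07) and *COX19* (0.01), the insertion factors *COX18* (-0.12) and *COX20* (-0.26), and *COX16* (0.00) did not pass the threshold either. *COX20* overlaps *HNRNPU* on the other strand and the library kit is not stated to keep strand, so reads of the far more abundant *HNRNPU* cannot be told apart from it. The same holds for *ATP5MF-PTCD1* with *CPSF4* (mean values of 646 and 2379). It holds to a lesser degree for *COX4I1* with *EMC8*, *COX10* with *COX10-DT*, *COX11* with *TOM1L1*, *COX15* with *ENTPD7*, *ATP5MK* with *TAF5*, *ATP5PB* with *WDR77*, *ATP5PD* with *KCTD2*, *ATP5PF* with *GABPA* and *ATP5PO* with *LINC00649* (4943 and 476). *COX16* shares its strand with the overlapping *SYNJ2BP*.

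In ATP synthase 10 of 21 members tested fell (47.6%, against 57.1% of the complex IV subunits), with 1 that rose and 10 that did not pass the threshold. By part of the enzyme, 3 of 3 genes of subunit c fell, 3 of 5 among subunits e, f, g and the other small membrane subunits, 2 of 5 in the catalytic head and central stalk, and none of 4 in the peripheral stalk by limma, where *ATP5PO* rose and no other gene had an unadjusted p under 0.05. The inhibitor *ATP5IF1* and the read-through gene *ATP5MF-PTCD1* make up the 10.

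Subunit c forms the rotating ring that carries protons, and 3 genes encode the same mature protein with different leader peptides. *ATP5MC2* (ENSG00000135390, chromosome 12 of GRCh38, 53632726 to 53677408) had values of 4773, 4731 and 4675 in the parental and 2343, 2565 and 2441 in the resistant libraries. The spread within groups was small beside the gap between them, with a log2 fold change of -0.95 (SE 0.06, adjusted p = 3.4e-06). *ATP5MC3* had values of 3069, 2986 and 3315 against 2397, 2268 and 2483, also without overlap, and fell by 0.39 (SE 0.07, adjusted p = 0.00161). *ATP5MC1* had values of 3737, 4086 and 4424 against 3311, 2942 and 3482 and fell by 0.33 (SE 0.08, adjusted p = 0.0117). The call of *ATP5MC1* was lost without parental library 3 (adjusted p = 0.0554) and without the trend of limma. The 3 genes together had a summed value of 11932 ± 432 (SD, n = 3) in parental and 8077 ± 316 (SD, n = 3) in resistant libraries, 67.7% of the parental mean. Per length of the longest transcript, the share of *ATP5MC2* among the 3 was 45.7%, 44.4% and 41.9% in parental and 32.9%, 37% and 32.8% in resistant libraries, with means of 44% ± 1.91 and 34.2% ± 2.44 (SD, n = 3). The share of *ATP5MC2* was lower in every resistant library than in any parental library, and those of *ATP5MC1* (33.8% to 40.4%) and *ATP5MC3* (22.2% to 25.4%) were higher. With the length of the canonical transcript the *ATP5MC2* share was 49.9% ± 2.18 and 39.5% ± 2.81, and with no division by length 39.7% ± 1.82 and 30.4% ± 2.26.

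In the catalytic head, *ATP5F1B* encodes the beta subunit that holds the catalytic sites, and *ATP5F1A* the alpha subunit that alternates with it. *ATP5F1B* (ENSG00000110955, chromosome 12 of GRCh38, 56638175 to 56645984) had values of 32194, 30042 and 30674 in the parental and 19552, 17949 and 19039 in the resistant libraries. The groups lay far apart, and *ATP5F1B* fell by 0.72 on the log2 scale (SE 0.06, adjusted p = 1.35e-05). *ATP5F1A* had values of 10326 ± 326 (SD, n = 3) and 10269 ± 636 (SD, n = 3), which differ by -0.01 on the log2 scale (SE 0.06), and its groups overlapped. In the central stalk, *ATP5F1E*, the epsilon subunit, went from 2789 ± 262 (SD, n = 3) to 1967 ± 37.2 (SD, n = 3) and fell by 0.50 (SE 0.08, adjusted p = 0.000814). *ATP5F1C*, the gamma subunit that turns inside the head, had a log2 fold change of -0.21 (adjusted p = 0.0524) with resistant libraries below all parental ones, and it passed the threshold with TMM scaling, a pseudocount of 10 and a minimum mean of 50 (adjusted p of 0.0383, 0.0496 and 0.0461), within a range of 0.0383 to 0.186 over its alternatives. *ATP5F1D*, the delta subunit, was at -0.08 (adjusted p = 0.526).

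The peripheral stalk holds the head still while the ring turns. *ATP5PO* (ENSG00000241837, chromosome 21 of GRCh38, 33903453 to 33915814), whose product OSCP sits on top of the head, was the member with the largest rise. It had values of 3252, 3379.96 and 3692 in the parental and 6841, 6008 and 6488 in the resistant libraries, 187% of the parental mean. No resistant library came near a parental one, and the log2 fold change was 0.91 (SE 0.07, adjusted p = 1.19e-05). *ATP5PF*, the coupling factor of the stalk, was higher in all resistant libraries at 0.13 but did not pass the threshold (adjusted p = 0.137). *ATP5PF* lies head to head with *GABPA* and overlaps it on the other strand. *ATP5PB* (-0.12) and *ATP5PD* (-0.11), the b and d subunits, did not pass the threshold and their groups overlapped.

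Among the small membrane subunits, *ATP5MF* (ENSG00000241468, chromosome 7 of GRCh38, 99448475 to 99466186), subunit f, had values of 4717, 4669 and 4827 in the parental and 2680.2, 2399 and 2722 in the resistant libraries. The groups did not overlap, and *ATP5MF* fell by 0.87 (SE 0.07, adjusted p = 9.84e-06). The read-through gene *ATP5MF-PTCD1* shares exons with *ATP5MF* and *PTCD1*, so its values are uncertain. It went from 748 ± 86.8 (SD, n = 3) to 544 ± 30.6 (SD, n = 3) (-0.46, adjusted p = 0.0083). Subunit g, *ATP5MG*, went from 8053 ± 349.8 (SD, n = 3) to 5734 ± 472 (SD, n = 3) (-0.49, adjusted p = 0.000515), and subunit e, *ATP5ME*, from 1154 ± 98.9 (SD, n = 3) to 839 ± 60.9 (SD, n = 3) (-0.46, adjusted p = 0.00385). Subunits e, f and g bend the membrane where the enzyme forms dimers. *ATP5MK* (-0.22, adjusted p = 0.0853) and *ATP5MJ* (0.15, adjusted p = 0.203) did not pass the threshold. *ATP5IF1* (ENSG00000130770, chromosome 1 of GRCh38, 28236109 to 28246906), which blocks ATP hydrolysis when the gradient collapses, had values of 2268, 2085 and 2367 in the parental and 1610.5, 1499 and 1562 in the resistant libraries. All resistant libraries were lower, and *ATP5IF1* fell by 0.52 (SE 0.07, adjusted p = 0.000398). *ATP5MGL* was listed at 0 in every library.

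The 6 members encoded by mtDNA did not pass the threshold, where 1 had an unadjusted p under 0.05. *MT-CYB*, the cytochrome b of complex III, had values of 27499, 44624 and 42366 in the parental and 31926, 20225 and 40569.9 in the resistant libraries (-0.33, SE 0.24). *MT-CO1*, which holds the site where oxygen is reduced, had values of 111608, 198681 and 207256 against 167560, 103499 and 186198 (-0.17, SE 0.25). *MT-CO2* had values of 32083, 58859 and 60412 against 49676, 29812 and 57569.5 (-0.14, SE 0.27). In each of these, parental library 1 and resistant library 8 were the lowest of their group, and the groups overlapped. *MT-CO3* had values of 45869, 73634 and 80368 against 62321, 41715 and 74375 (-0.16, SE 0.23). *MT-ATP6*, the channel through which protons reach the ring, had values of 27116, 49967 and 54667 against 41334, 27873 and 51736 (-0.10, SE 0.26). *MT-ATP8*, which overlaps *MT-ATP6* on the same transcript, had values of 155, 253 and 289 against 156, 115 and 192 (-0.57, SE 0.26, adjusted p = 0.104). Although both lie on 1 transcript, *MT-ATP8* had a mean value of 193 and *MT-ATP6* one of 42115, so the values of *MT-ATP8* are uncertain. Parental library 1 and resistant library 8 were also the lowest of their group in *MT-CO3*, *MT-ATP6* and *MT-ATP8*, as in all 13 messenger RNAs of mtDNA. Without parental library 1, *MT-ATP8* had a log2 fold change of -0.84 (adjusted p = 0.0211), and without both libraries one of -0.64 (adjusted p = 0.039), within a range of 0.0211 to 0.318 over its alternatives. The median SD within groups on the log2 scale was 0.46 for the 6 members of mtDNA, 0.10 for the 49 nuclear members tested and 0.15 for all genes tested. The standard errors of the members of mtDNA ran from 0.23 to 0.27, so that a log2 fold change of -0.26, the median of the nuclear members, was not detectable in them. Without both libraries 24 members fell, with *COX17* no longer past the threshold (adjusted p = 0.156) and *MT-ATP8* past it, and 2 rose, with *COX15* no longer past it (adjusted p = 0.162) and *ATP5MJ* past it (adjusted p = 0.0387).

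**Figure D3:**
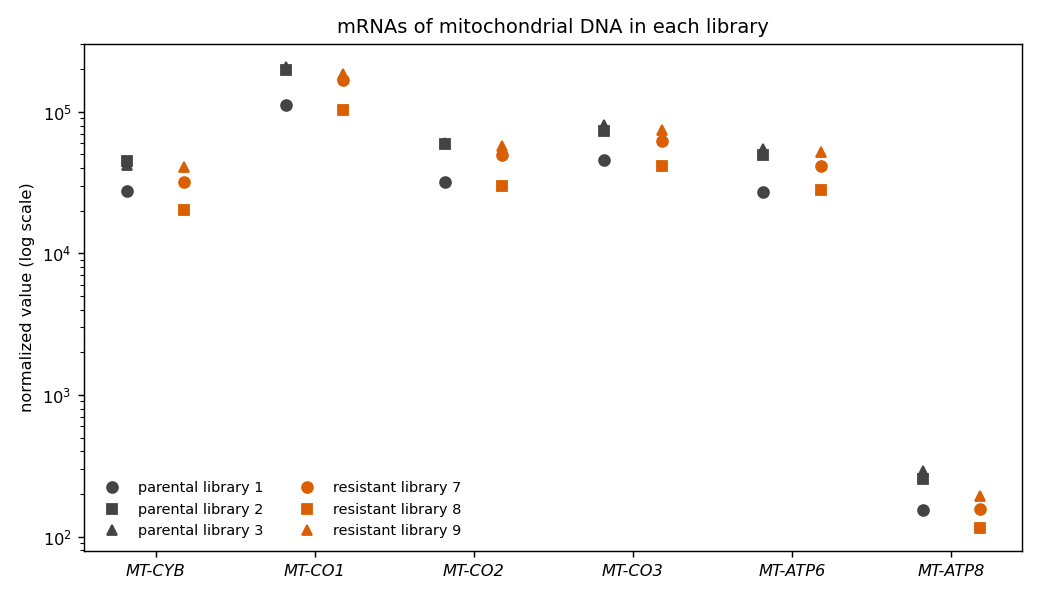
Normalized value (vertical axis, log scale) of the 6 members of mtDNA in each of the 6 libraries, with 1 symbol per library. Parental library 1 and resistant library 8 are the lowest of their group for every gene, and the spread within a group (*MT-CO1*, 111608 to 207256 in parental libraries) is wider than the gap between groups.

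The position of the nuclear members was set beside their change, since genes of some chromosome segments shifted together in these libraries. For each member the median log2 fold change of the nearest tested genes was taken, 25 on each side and fewer at the ends of chromosomes. Of the 24 members that fell, 5 lay among neighbours with a median of -0.3 or lower, and 19 among neighbours with a median between -0.3 and 0.3. The 5 were *ATP5F1B* (neighbours -0.61), *COX6A1* (-0.57) and *ATP5MC2* (-0.47) on chromosome 12, and *ATP5MF* (-0.51) and *ATP5MF-PTCD1* (-0.53) on chromosome 7. Among them are the 4 members with the lowest log2 fold changes that passed the threshold, and all 4 members on chromosome 12 fell. *ATP5PO* rose among neighbours with a median of 1.04 on chromosome 21. *ATP5PF*, also on chromosome 21, had neighbours at 0.64, and *COX5A*, *COX16* and *ATP5MJ* had neighbours at 0.44, 0.41 and 0.41. Of the 49 nuclear members tested, 39 had a log2 fold change below that of their neighbours, with a median difference of -0.26.

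**Figure D4:**
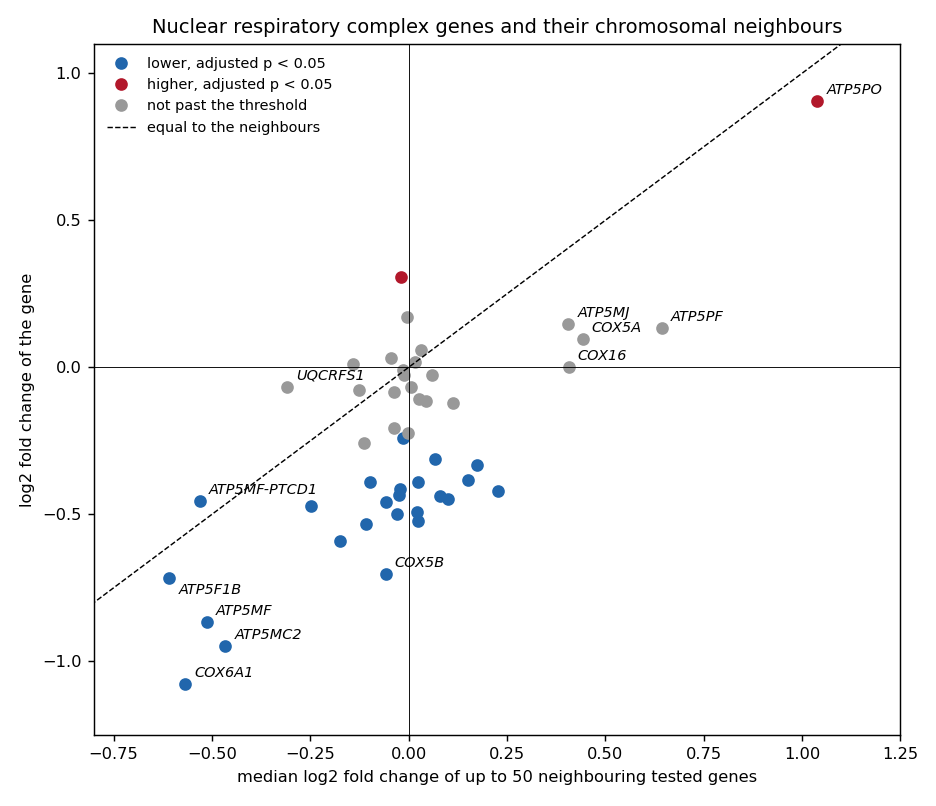
Log2 fold change of each tested nuclear member except *UQCRHL* (vertical axis) against the median log2 fold change of up to 50 neighbouring tested genes (horizontal axis), with the dashed line where both are equal. Most points lie below the line (39 of 49 members, *UQCRHL* included), *ATP5PO* is close to it at 0.91 against 1.04, and *COX5B* fell among neighbours at -0.06.

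When the median deviation of the neighbours was subtracted from each library (local median centring), 26 members fell and 2 rose, where 16% and 14.2% of all genes tested did, and 22 members fell both with and without it. *COX6A1* then fell by 0.50 (adjusted p = 0.00182), *ATP5MC2* by 0.46 (adjusted p = 0.000444) and *ATP5MF* by 0.36 (adjusted p = 0.00243). *ATP5F1B* was no longer past the threshold, at -0.14 (adjusted p = 0.117), and *ATP5MF-PTCD1* was at 0.05 (adjusted p = 0.744). *ATP5PO* changed sign, to -0.12 (adjusted p = 0.232). *ATP5PF* fell by 0.56 relative to its neighbours (adjusted p = 0.000428), *COX16* by 0.46 (adjusted p = 0.013) and *COX5A* by 0.36 (adjusted p = 0.00269). *UQCRFS1* rose to 0.29 (adjusted p = 0.019). *COX5B* kept a log2 fold change of -0.60 (adjusted p = 0.0008), and *COX7B* one of -0.65 (adjusted p = 0.00201).

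Many of the members have short transcripts and high values. Their change was set beside that of all tested protein-coding genes of the same length and level, with the members included. This comparison was chosen after the data had been seen. Of 749 tested protein-coding genes with a canonical transcript under 1000 bases, 39.3% fell and 9.08% rose, and of 24 nuclear members of that length 62.5% fell. Of the 295 among them whose mean value reached 1000, 57.3% fell and 6.1% rose, and the median log2 fold change was -0.28. In the same class, 12 of 19 nuclear members fell (63.2%), with a median of -0.38. At the same level, 41% of 808 genes and 5 of 9 members fell from 1000 to 2000 bases, from 2000 to 4000 bases 30.7% of 1877 genes and 3 of 7 members, and from 4000 bases 20% of 2638 genes and none of 2 members. Transcript length and level thus moved with the result, and their part in it was not tested.

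**Figure D5:**
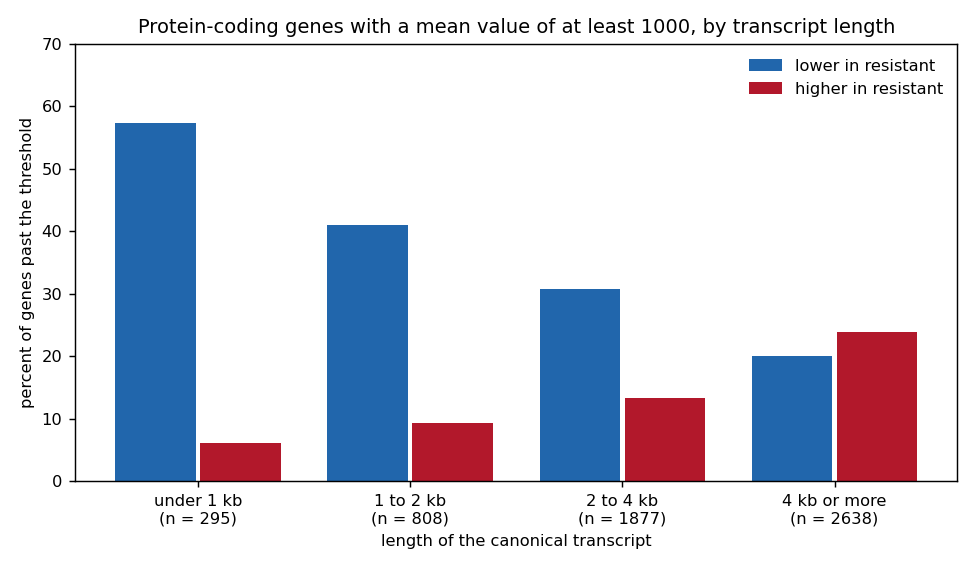
Percent of protein-coding genes whose mean value reached 1000 that fell (blue) or rose (red) in resistant cells (vertical axis), by length of the canonical transcript (horizontal axis, with the number of genes). The share that fell goes from 57.3% under 1 kb to 20% at 4 kb or more, and the share that rose from 6.1% to 23.8%.

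The rest of the respiratory chain was read from lists of other genes. Over all genes tested, 19.8% fell and 17.8% rose. Of 37 nuclear subunits of complex I, which feeds electrons from NADH, 22 fell (59.5%) and 1 rose (2.7%). Their median on the log2 scale was -0.25. *NDUFS6* fell from 1971 ± 132 (SD, n = 3) to 911 ± 58.6 (SD, n = 3) (-1.11, adjusted p = 8.03e-06) and *NDUFB2* by 0.73 on the log2 scale (adjusted p = 0.000164). *NDUFV3*, on chromosome 21 like *ATP5PO*, rose from 927 ± 71.8 (SD, n = 3) to 1911 ± 107 (SD, n = 3) (1.05, adjusted p = 1.22e-05). Of 7 subunits of complex I from mtDNA, 1 fell (14.3%), *MT-ND1* (-0.89, adjusted p = 0.0142). Without parental library 1 and resistant library 8, 5 of the 7 fell, *MT-ND1* (adjusted p = 0.000462), *MT-ND6* (0.00704), *MT-ND2* (0.0235), *MT-ND4* (0.0237) and *MT-ND3* (0.0313). Without these 2 libraries, 2443 of 16350 genes tested fell. Of 8 genes of complex II, which is encoded by the nucleus alone, 1 fell (12.5%, against 19.8% of all genes tested). This was the flavoprotein *SDHA* (-0.61, adjusted p = 6.03e-05), and the median of the 8 was -0.09. Unlike the list of complex I, this list holds assembly factors (*SDHAF1* to *SDHAF4*) beside the subunits. The other subunits, *SDHB* (-0.11), *SDHC* (0.17) and *SDHD* (0.18), did not pass the threshold, and neither did the assembly factors.

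Of 9 assembly factors of complex III, 6 fell (66.7%) and none rose by limma, where 6 had an unadjusted p under 0.05. The median was -0.57. Of all genes tested, 19.8% fell and 17.8% rose. Among the 6 that fell were *UQCC3* (-0.76, adjusted p = 0.000118), *UQCC6* (-1.08, adjusted p = 0.0011) and *UQCC2* (-0.75, adjusted p = 0.00145). Of 27 further genes of complex IV, 10 fell (37%) and none rose by limma, where 10 had an unadjusted p under 0.05. Their median was -0.17. *NDUFA4*, now counted as a subunit of complex IV, fell from 4833 ± 487 (SD, n = 3) to 3509 ± 315 (SD, n = 3) (-0.46, adjusted p = 0.00297), and its paralog *NDUFA4L2* fell by 1.55 on the log2 scale (adjusted p = 0.000722). *COA1* fell by 0.49 (adjusted p = 0.00126) and cytochrome c itself, *CYCS*, by 0.29 (adjusted p = 0.0126). Of 11 genes of ATP synthase assembly and ATP export, 2 fell (18.2%) and 1 rose (9.09%), with a median of -0.09, where 19.8% and 17.8% of all genes tested did. These were the phosphate carrier *SLC25A3* (-0.74, adjusted p = 1.74e-05), the ADP/ATP carrier *SLC25A6* (-0.58, adjusted p = 4.22e-05) and *ATPAF1*, which helps to build the catalytic head and rose by 0.35 (adjusted p = 0.00281).

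Of 24 genes that copy or transcribe mtDNA, act on its RNA or insert its proteins, 6 fell (25%) and 2 rose (8.33%). Their median was -0.12, and of all genes tested 19.8% fell and 17.8% rose. *POLG*, the polymerase of mtDNA, fell by 0.63 (adjusted p = 0.000558), *SSBP1* by 0.52 (adjusted p = 0.000347) and *TFAM*, which packs mtDNA, by 0.21 (adjusted p = 0.0406). *OXA1L*, which inserts mtDNA-encoded proteins into the membrane, rose by 0.56 (adjusted p = 0.000153). *LRPPRC*, which stabilizes messenger RNA of mtDNA, was at -0.16 (adjusted p = 0.116). Of 10 regulators of respiratory genes, 3 fell (30%) and 4 rose (40%), where 19.8% and 17.8% of all genes tested did. Their median was 0.10. *NRF1* fell from 897 ± 19.9 (SD, n = 3) to 646 ± 25.2 (SD, n = 3) (-0.47, adjusted p = 0.00145) and *ESRRA* from 2186 ± 143 (SD, n = 3) to 1553 ± 46.7 (SD, n = 3) (-0.49, adjusted p = 0.000575). *PPARGC1B*, a coactivator of both, rose from 861 ± 97.7 (SD, n = 3) to 1483 ± 97.8 (SD, n = 3) (0.79, adjusted p = 0.000211), and *HIF1A*, the oxygen-regulated factor, by 0.44 (adjusted p = 0.000972). *PPARGC1A* had low values, 75.2 ± 12.3 (SD, n = 3) and 75.6 ± 26.9 (SD, n = 3), that overlapped, and *GABPA*, the DNA-binding subunit of GABP, was at 0.15 (adjusted p = 0.265). The other regulators past the threshold, named after their values were seen, were *GABPB1*, the partner subunit of GABP, which fell by 0.40 (adjusted p = 0.0132), and *ESRRG* and *YY1*, which rose by 1.07 (adjusted p = 0.0014) and 0.25 (adjusted p = 0.0434). The neighbours of the genes in these further lists were not taken. Of those named, *NDUFA4L2*, *UQCC6* and *SLC25A3* lie on chromosome 12 (median log2 fold change of its tested genes -0.34). On chromosome 7 (-0.25) lie *NDUFB2*, *NDUFA4*, *COA1*, *CYCS*, *SSBP1* and *NRF1*. *OXA1L*, *HIF1A* and *YY1* lie on chromosome 14 (0.38), and *POLG* and *GABPB1*, which fell, on chromosome 15 (0.29). The part of position in these changes was not tested.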

How the data were processed

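RNA of 3 parental and 3 onvansertib-resistant libraries was compared. According to the paper's methods and the submitters' processing notes, the authors trimmed reads with Trimmomatic 0.38, quantified them with RSEM 1.3.1 on GRCh38 with the Gencode v43 annotation (STAR is also listed) and normalized gene counts with DESeq2 1.30.0. The deposited values are this normalized signal per gene and library, not counts. Whole reads were not recovered (54.3% to 64.1% of low values were multiples of 1 read within 0.05), so no count test was run.

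Of 62757 rows, 47 second pseudoautosomal copies were left out, and Gencode v44 gave symbols and positions for 62639 of the remaining 62710. The 16347 genes with a mean of at least 10 were compared with limma 3.58.1 in R 4.3.3 on the log2 scale after adding 1 (lmFit and eBayes with trend, a single term for the group), with p adjusted by Benjamini-Hochberg over all of them and a threshold of 0.05. Fold changes understate changes of low genes. On simulated libraries of 16347 genes, 133 of 200 changed genes were called, 91 of 100 at a log2 change of 1 and 42 of 100 at 0.5, with 8 false calls. Every simulated gene had the same SD of 0.15 on the log2 scale, with counting noise added. In the data the median SD was 0.10 for nuclear members tested and 0.46 for those of mtDNA, and 37.7% of genes passed the threshold. These rates therefore do not carry over to this comparison. Tables and figures used Python 3.11.15, numpy 2.4.6, pandas 2.3.3 and matplotlib 3.10.9.

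Alternatives were TMM scaling, quantile normalization, limma without trend, a pseudocount of 0.1 or 10, testing all genes above 0, a minimum mean of 50, mtDNA genes left out before rescaling, local median centring over 51 genes, and each library left out. The rescaling after mtDNA genes were left out gave every library the same total, in place of the deposited scaling. The members, gene lists and tests were chosen with earlier results of these data known. All members could be named. Values in every library were given for members past the threshold with an absolute log2 fold change of at least 0.5, for those that rose, those of mtDNA and those with paralogs. From each further list up to 3 genes past the threshold with the smallest p were named, and *NDUFA4*, *CYCS*, *PPARGC1A*, *PPARGC1B*, *NRF1*, *GABPA*, *ESRRA*, *TFAM* and *LRPPRC* in any case. The value of 1 marker gene is not reported here.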

Additional observations from a re-analysis of the deposited data

How the results depend on the processing

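The number of members that fell was 24 and lay between 20 and 26 over all alternatives, and 18 of the 26 members past the threshold stayed past it under every one. The number of members that rose was 2. It was 1 without the trend of limma and 1 to 2 when each library was left out. The number of assembly factors of complex IV that fell was 2. It was 1 with no filter, with quantile normalization, without the trend and with mtDNA genes left out, 1 to 2 when each library was left out, and 1 without both parental library 1 and resistant library 8, an alternative chosen after seeing the data. The counts of complex III (4 to 5), complex IV subunits (6 to 9), ATP synthase (9 to 11) and all genes past the threshold (4511 to 6228, against 6161) moved by less than 1.5 times. Of the members past the threshold with or without local median centring, the sign turned under it for *UQCRFS1* (0.29), *COX5A* (-0.36), *COX16* (-0.46), *ATP5MF-PTCD1* (0.051), *ATP5PF* (-0.56) and *ATP5PO* (-0.12), by subtraction of the shift of the neighbours. No other alternative turned the sign of a called member. With mtDNA genes left out and each library rescaled to the same total, 56.6% of all genes past the threshold were higher, against 47.3%. The median log2 fold change of all genes was then 0.06, and 3 members rose, among them *ATP5PF* (adjusted p = 0.0299). This alternative changed the scaling as well as the genes, and the parts of the 2 steps were not tested. The median log2 fold change of all genes lay between -0.03 and 0.06 over the scalings. No paired analysis was possible because the groups share no replicate number, with 1 to 3 in parental and 7 to 9 in resistant cells. Depth set the limit for the tissue-specific subunits, and the spread of mtDNA between libraries that for its members.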

Other observations

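Pseudogenes of the members were almost silent in the table. Of 309 such genes, 282 were at 0 in all 6 libraries and 3 had a mean of at least 10. These were *MTATP6P1* (1972 ± 746 in parental and 1827 ± 595 in resistant libraries, SD, n = 3) and *MTCO1P12* (1763 ± 486 and 1237 ± 385), nuclear copies of mtDNA on chromosome 1 that can share reads with *MT-ATP6* and *MT-CO1*, and *UQCRFS1P1* (136 ± 37.9 and 124 ± 6.24) on chromosome 22.

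Other motifs in the windows around the start were also counted, on both strands. The YY1 motif stood in 2 of 39 member windows (5.13%, against 2.26% of tested protein-coding genes), in *UQCRC1* and *COX10*. The CCAAT box CCAAT stood in 19 (48.7%, against 43.2%) and the E-box CACGTG in 5 (12.8%, against 12.6%). The exact NRF1 palindrome, a case of the motif with a free base, stood in 3 (7.69%, against 2.58%), in *COX17*, *COX18* and *ATP5F1C*.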
